A study of Mus musculus with 14 samples.

Results

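Early thymocytes that lacked both Ezh2 and p53 were set against thymocytes that lacked Ezh2 alone, a comparison that asks what p53 loss adds to Ezh2 loss before leukemia. The members are the 3 double-deleted arrays (Ezh2Δ/Δp53Δ/Δ) and the 3 Ezh2-deleted arrays (Ezh2Δ/Δ) of non-leukemic cells, 6 of the 14 arrays of the series, paired by stage. The stages are DN1, DN2 and DN3, the CD4-CD8- thymocytes with CD44 alone, with CD44 and CD25, and with CD25 alone. All donors were C57BL/6 mice with a Cre recombinase fused to an oestrogen receptor (Cre-ERT2) and carried, for these groups, both floxed genes or floxed Ezh2 alone. Their marrow went into wild-type CD45.1+ recipients after lethal irradiation, the genes were deleted 4 weeks later, and thymocytes were sorted 3 months after transplantation. The other genotypes, which also carry Cre-ERT2, are p53-deleted (p53Δ/Δ) and WT; they have the same 3 stages and serve here as a second view of p53 loss, with Ezh2 intact. Recipient cells that survive irradiation, recipient stroma and donor cells that escape deletion may all be among the sorted cells. Each genotype and stage has 1 array, and nothing in the labels ties its stages to separate mice, so p-values rest on how alike the 3 stages are, which may be technical, and leave out differences from mouse to mouse. In RNA of sorted pools, fewer cells of a type and less RNA per cell cannot be told apart.

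EZH2 carries out histone methylation within Polycomb repressive complex 2 (PRC2), which keeps developmental regulators and the INK4 and ARF inhibitors silent, and its loss in marrow cells is linked to early T cell precursor leukemia. The protein p53, encoded by Trp53, is a transcription factor that stress and oncogenic signals stabilise, and it switches on genes for cell cycle arrest, apoptosis and DNA repair. Cdkn2a joins both pathways, since it is a textbook PRC2 target and its ARF product shields p53 from the ubiquitin ligase MDM2. Thymocytes between DN1 and DN3 leave the progenitor state, commit to the T lineage under Notch signals and begin to rearrange the T cell receptor beta gene.

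Levels are given as log2 of the processed signal over the 75th percentile of the array, always in the order DN1, DN2 and DN3, and "detected" means that the scanner software marked the probe as well above background. The 75th percentile of the signal itself was 524, 474 and 446 on the double-deleted arrays and 274, 271 and 277 on the WT arrays. It was between 61.3 and 123 on the Ezh2-deleted and p53-deleted arrays, which share slide 2. Double-deleted arrays were thus brighter than all others of the 12, also than WT arrays of the same slide. Double-deleted DN2 and DN3 lay with all WT arrays on slide 1, and double-deleted DN1 lay on slide 3, so slide and genotype cannot be told apart between double-deleted and Ezh2-deleted cells. Over the 12 non-leukemic arrays, principal component 1 held 38.5% of the variance and put slide 2 at 44.1 to 135 and the others at -127 to -38.9. Between 40.3% and 50.4% of probes were detected on each array and none was saturated. Cd44 was lowest at DN3 and Il2ra, the gene of CD25, was lowest at DN1 in both genotypes, as their gates require. Of the genes of the CD4-CD8- gate, Cd4 was nonetheless detected on all 6 arrays. It read 2.16, 2.11 and 2.08 in double-deleted and 1.93, 1.29 and 1.43 in Ezh2-deleted cells. Cd8a was detected on 3 double-deleted arrays and 1 Ezh2-deleted array, and Cd8b1 on 3 and 2. All 8 thymocyte markers, among them Thy1, Cd3e and Gata3, were detected on all 6 arrays. Donor sex differed: Xist was detected on the 3 Ezh2-deleted arrays alone, while Y-linked Uty, Ddx3y and Eif2s3y were detected on each of the other 9 arrays and on none of these. Genes of chromosomes X and Y were therefore left out, but an effect of sex on other genes cannot be told apart from genotype.

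Of 26341 autosomal or unplaced features, 3649 were higher and 4508 lower in double-deleted than in Ezh2-deleted cells at an adjusted p under 0.05 in limma, which is 13.9% and 17.1%, or 31.0% together. The 3 arrays of each genotype did not overlap for 19.2% of features on the higher and 24.3% on the lower side. The same test of p53-deleted against WT cells called 4391 higher (16.7%) and 5264 lower (20.0%), 36.7% together. These comparisons share no array, but each sets a slide 2 genotype against a genotype of the other slides, in opposite order. Of the 3649 features higher in double-deleted cells, 2620 were lower and 189 higher in p53-deleted than in WT cells, and of the 4508 lower ones, 1681 were higher and 138 lower. A slide-balanced contrast was therefore added, the mean of both p53 effects, in which a difference between slides 1 and 2 cancels at DN2 and DN3. This contrast does not cancel effects of the greater brightness of double-deleted than of WT arrays. It called 794 features higher (3.01%) and 1245 lower (4.73%), or 7.74% in all. It holds the double-deleted against Ezh2-deleted difference as one of its parts, so a call in both is not independent support. Calls in both went to 342 features on the higher and 570 on the lower side, while 123 were higher in the direct comparison and lower in the balanced one and 12 the reverse. The test of the difference between both p53 effects, in which a slide difference adds up, called 46.2% of features.

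The split of the calls depends on scaling. Higher features made up 44.7% of the calls between double-deleted and Ezh2-deleted cells, against 58.3% (4279 higher, 3059 lower) when the percentile was taken over probes detected on all arrays, 22.6% (3591 and 12301) after normexp background correction and 20.5% (4025 and 15638) with no filter on dim probes. The median of all features was -0.16, and it was 0.04, -0.45 and -0.58 under these settings, so changes of single genes below are read against that shift. After normexp 13.6% of features were higher and 46.7% lower; where a gene list below had other counts then, they are given beside its count, in brackets as higher and lower, and counts of lists are to be read against these shares and against the 13.9% and 17.1% above. For the balanced contrast the share was 38.9%, against 53.8% (617 and 530) with the percentile over detected probes, 15.4% (1072 and 5901) after normexp and 57.6% (657 and 484) when a change of at least 2-fold was also required. Leaving out double-deleted DN2 lowered the direct count to 4017 and the balanced count to 339. Without double-deleted DN3 or Ezh2-deleted DN2 the direct count was 5258 or 5357. The balanced count also fell by more than 1.5 times, to between 582 and 1359, without double-deleted DN1 or DN3, without any 1 of the Ezh2-deleted or WT arrays, or without p53-deleted DN3.

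**Figure D1:**
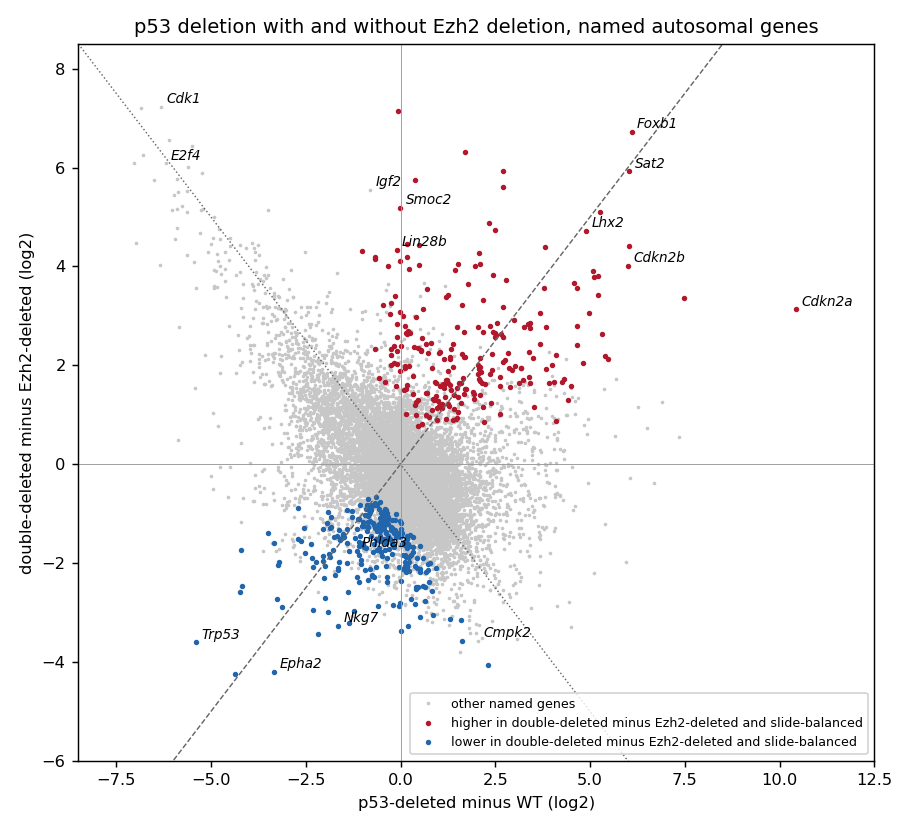
Each point is a named autosomal gene, placed by its log2 difference for double-deleted minus Ezh2-deleted cells (vertical) and p53-deleted minus WT cells (horizontal), 3 arrays per genotype. Red and blue mark the genes called higher and lower in both the direct and the slide-balanced contrast; the dashed line marks equal and the dotted line opposite differences. Most points with large rises, such as Cdk1 and E2f4, lie near the dotted line, while Foxb1, Sat2 and Lhx2 lie near the dashed line and Smoc2 and Lin28b rise at a p53-deleted minus WT difference near 0.

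Trp53 levels followed the genotype labels. Its level was -3.88, -2.40 and -0.92 in double-deleted cells, against 0.68, 1.68 and 1.24 in Ezh2-deleted cells, and it was -3.50, -5.36 and -4.88 in p53-deleted cells, against 0.11, 1.03 and 1.28 in WT cells. Every array of cells deleted for p53 lay below every array of cells with p53, and the probe was detected on all 3 double-deleted arrays and on no p53-deleted array. Between double-deleted and Ezh2-deleted cells Trp53 fell by 3.60 ± 0.70 (adjusted p = 0.00571; SE, 3 arrays per genotype, as for all changes below), a 12.2-fold difference, and the balanced change was -4.50 ± 0.50 (adjusted p = 0.00283). Within double-deleted cells the level was lowest at DN1 and highest at DN3. The sources used here do not give where the probe lies relative to the floxed part of the gene, so its level does not check the deletion itself.

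The INK4 and CIP/KIP genes encode inhibitors of cyclin-dependent kinases. Of 7 tested members 3 rose, Cdkn2a, Cdkn2b and Cdkn1c, all 3 also in the balanced contrast, and none fell; the list median was 0.68 (5 and 0 after normexp). Cdkn2a, which encodes both INK4A and ARF, stood at 5.46, 5.43 and 4.78 in double-deleted cells, against 1.1, 2.74 and 2.44 in Ezh2-deleted cells. It rose by 3.13 ± 0.61 (adjusted p = 0.00567), and its other probe rose by 3.89. In p53-deleted cells it reached 6.56, 6.4 and 6.57, against -3.05, -5.28 and -3.45 in WT cells, where it was detected on 1 array. Cdkn2a thus stood higher on every array with p53 deleted than on any array with p53, and the 3 Ezh2-deleted arrays stood above the 3 WT arrays. Cdkn2b, its neighbour, encodes INK4B and stood at 1.73, 1.44 and 1.04 in double-deleted cells, against -2.13, -2.76 and -2.95 in Ezh2-deleted cells, a rise of 4.02 ± 0.48 (adjusted p = 0.000538). Cdkn1c, which encodes the inhibitor KIP2 and is imprinted, stood at 1.77, 1.81 and 1.62, against 0.25, -0.21 and -0.17, a rise of 1.77 ± 0.24 (adjusted p = 0.000896) with no overlap of arrays. The p53-deleted arrays were likewise above the WT arrays for Cdkn2b and Cdkn1c. Cdkn1a, which encodes CIP1 and is a well known p53 target, did not pass (change -0.64 ± 0.32, adjusted p = 0.16), nor did Cdkn1b (0.68 ± 0.26), Cdkn2c (0.16 ± 0.31) or Cdkn2d (0.38 ± 0.23).

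**Figure D2:**
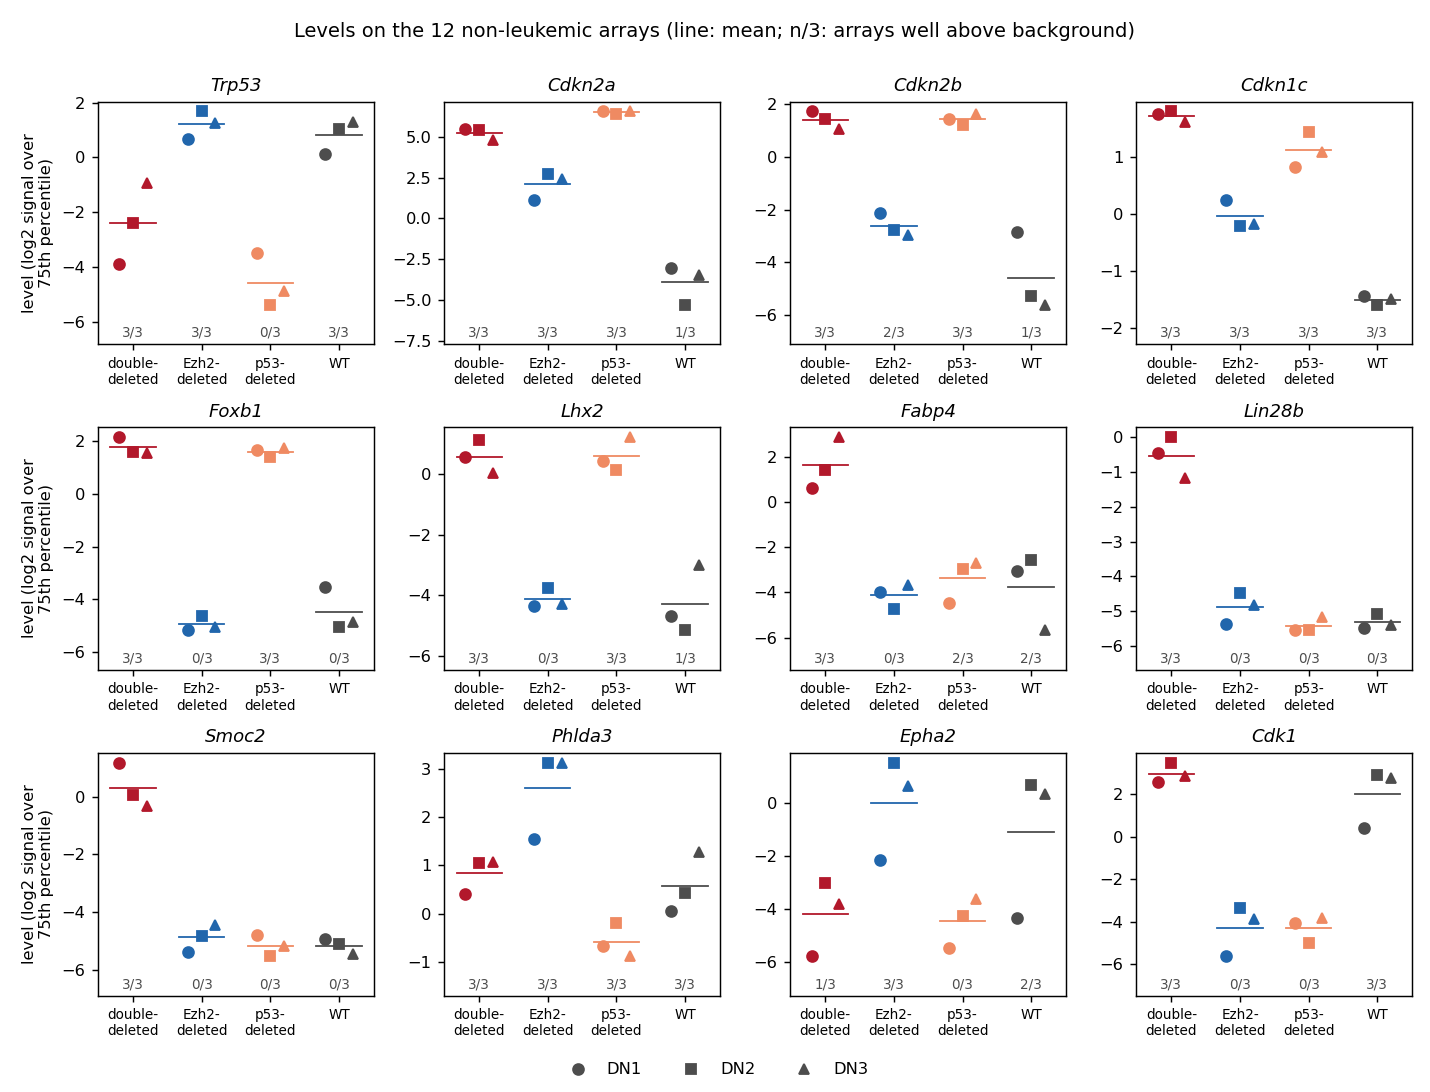
Levels of 12 genes on the 12 non-leukemic arrays, as log2 of the signal over the 75th percentile of the array; each point is 1 array, its shape the stage, the line the mean of 3 arrays, and the fraction below the number of arrays on which the probe was detected. Trp53 is low and Cdkn2a high in both p53-deleted genotypes, and Cdk1 is low on the arrays of slide 2, Ezh2-deleted and p53-deleted. Lin28b and Smoc2 are detected on double-deleted arrays alone. Fabp4 is highest in double-deleted cells but is detected on some p53-deleted and WT arrays too.

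Genes that p53 is known to switch on moved in both directions, few of them past the test. Of 51 tested members of a 56-gene list, 6 rose and 6 fell, where 13.9% and 17.1% of all features did, with a median of -0.27 (7 and 13 after normexp). Phlda3, which encodes an inhibitor of AKT, fell by 1.75 ± 0.36 (adjusted p = 0.00692): its level was 0.40, 1.05 and 1.07 in double-deleted cells, against 1.56, 3.11 and 3.12 in Ezh2-deleted cells, with no overlap. It was also lower in p53-deleted (-0.66, -0.18 and -0.87) than in WT cells (0.05, 0.43 and 1.27), and the balanced change was -1.45 ± 0.25 (adjusted p = 0.0157). Dcxr, a sugar reductase, followed the same pattern with a fall of 1.27 ± 0.41 (adjusted p = 0.0451) and a balanced change of -1.55 ± 0.29 (adjusted p = 0.0195). These were the 2 members lower in both contrasts. Dglucy fell by 1.92 ± 0.42 (adjusted p = 0.00969), Gpx1, a glutathione peroxidase, by 1.21 ± 0.29 (adjusted p = 0.0134), Bax, the pro-apoptotic pore protein, by 1.11 ± 0.25 (adjusted p = 0.0111) and Ccng1, cyclin G1, by 1.09 ± 0.27 (adjusted p = 0.0161), and none of these 4 was called in the balanced contrast. Zfp365, which was not called between double-deleted and Ezh2-deleted cells (-0.21 ± 0.54), was the 1 member higher in the balanced contrast (1.82 ± 0.38, adjusted p = 0.0277).

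On the rising side, Plk2, a stress-induced Polo-like kinase, stood at 1.41, -1.15 and -1.37, against -0.06, -4.12 and -2.99 in Ezh2-deleted cells, a rise of 2.02 ± 0.57 (adjusted p = 0.0272). Ei24 rose by 1.21 ± 0.32 (adjusted p = 0.0217), Trp73, a p53 paralogue, by 0.98 ± 0.31 (adjusted p = 0.0436) and Fbxw7, a ubiquitin ligase subunit that targets MYC and NOTCH1, by 0.77 ± 0.24 (adjusted p = 0.039), while the other Fbxw7 probe read -0.22. Gtse1 was at least 16.8-fold higher (adjusted p = 2.42e-05), at 0.31, 1.45 and 0.63 in double-deleted cells and not detected in Ezh2-deleted cells, but it was not detected in p53-deleted cells either and stood at -1.22, 0.86 and 0.94 in WT cells. Rrm2b, a ribonucleotide reductase subunit, was detected on 2 double-deleted and no Ezh2-deleted array and was at least 1.02-fold higher (adjusted p = 0.00469). After normexp Rrm2b and Trp73 turned to -0.91 and -0.26. Mdm2, whose product degrades p53 (change -0.07 ± 0.21), Bbc3, which encodes PUMA (-1.10 ± 0.47), Pmaip1, which encodes NOXA (0.40 ± 0.35), and Fas (-0.51 ± 0.50) did not pass. Leaving out 1 of the 12 arrays ended the call of Dcxr for 7 arrays (adjusted p up to 0.189, without double-deleted DN2), Dglucy without double-deleted DN2 (adjusted p = 0.0544), Gpx1 for 3 arrays (adjusted p up to 0.0735, without double-deleted DN2), Bax without double-deleted DN3 (adjusted p = 0.0506), Ccng1 for 4 arrays (adjusted p up to 0.0767, without double-deleted DN2), Plk2 for 5 arrays (adjusted p up to 0.107, without Ezh2-deleted DN2), Ei24 for 5 arrays (adjusted p up to 0.1, without double-deleted DN2), Trp73 for 6 arrays (adjusted p up to 0.172, without double-deleted DN2) and Fbxw7 for 6 arrays (adjusted p up to 0.183, without double-deleted DN2).

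**Figure D3:**
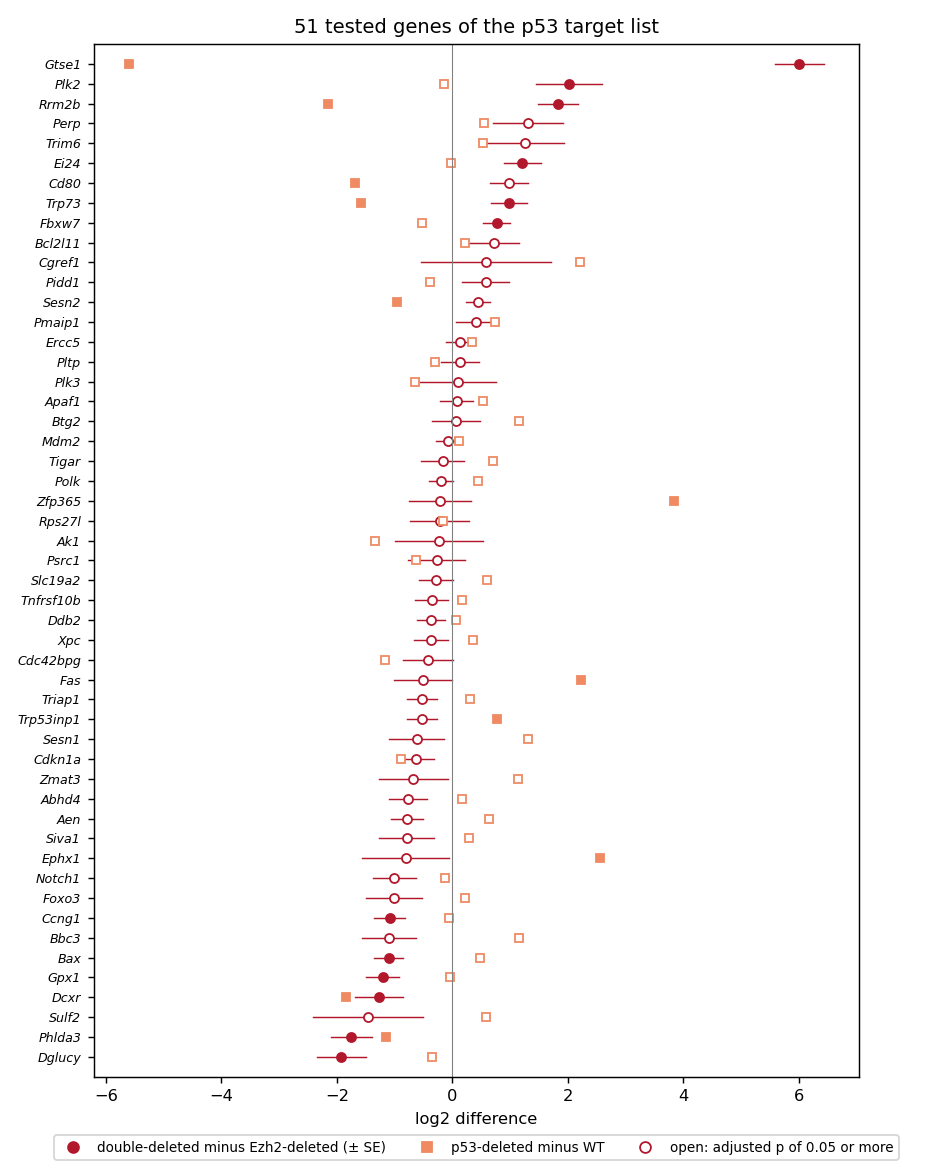
Circles give the log2 difference for double-deleted minus Ezh2-deleted cells with its SE, squares that for p53-deleted minus WT cells, 3 arrays per genotype, for the 51 tested genes of the p53 target list in order of the circles; filled symbols passed an adjusted p of 0.05. Of the circles 6 are filled on each side, and of the filled falls Phlda3 and Dcxr have a filled square below 0 too.

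The promoters of these genes were searched for the p53 response element, a pair of abutting 10-base units, with at most 2 mismatches to its 20 positions. It occurred in 262 of 32851 RefSeq promoters of 250 bases before to 50 bases after the start (GRCm38.p6), or 0.798%, and in 7 of 46 listed genes that had a promoter in the table: Trp73, Rps27l, Zfp365, Ccng1, Gtse1, Cd80 and Cdkn1a. These 46 genes had 66 promoters in the table, 7 of them with the element; counted by gene, 254 of 27025 genes (0.94%) had it. Both strands were covered, since the element reads the same on each. The 4 promoters with 19 of 20 matching bases are shown 5′ to 3′ on the strand of the gene, with the element in capitals, because they carry the plainest match next to a p53 deletion. They lie at chr9:66946163-66946462 (plus strand, Rps27l), chr11:40755237-40755536 (minus strand, Ccng1), chr15:85859696-85859995 (plus strand, Gtse1) and chr17:29090729-29091028 (plus strand, Cdkn1a).
Rps27l: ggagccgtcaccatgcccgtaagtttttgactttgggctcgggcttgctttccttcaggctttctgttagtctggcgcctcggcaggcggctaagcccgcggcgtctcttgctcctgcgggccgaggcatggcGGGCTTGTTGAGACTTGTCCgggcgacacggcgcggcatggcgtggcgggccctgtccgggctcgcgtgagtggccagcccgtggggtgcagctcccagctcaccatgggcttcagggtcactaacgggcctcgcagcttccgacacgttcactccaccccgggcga
Ccng1: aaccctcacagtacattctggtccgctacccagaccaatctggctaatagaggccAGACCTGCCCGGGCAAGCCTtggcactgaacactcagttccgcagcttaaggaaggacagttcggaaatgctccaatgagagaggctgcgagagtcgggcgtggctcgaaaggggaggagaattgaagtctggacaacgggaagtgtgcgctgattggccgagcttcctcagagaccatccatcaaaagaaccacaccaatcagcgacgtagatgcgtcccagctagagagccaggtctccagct
Gtse1: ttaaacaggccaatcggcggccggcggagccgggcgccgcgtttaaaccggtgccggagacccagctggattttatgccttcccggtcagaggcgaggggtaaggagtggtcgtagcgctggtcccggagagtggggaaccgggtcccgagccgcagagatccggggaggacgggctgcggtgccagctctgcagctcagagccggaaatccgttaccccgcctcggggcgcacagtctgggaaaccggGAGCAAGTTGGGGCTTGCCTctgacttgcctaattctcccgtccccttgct
Cdkn1a: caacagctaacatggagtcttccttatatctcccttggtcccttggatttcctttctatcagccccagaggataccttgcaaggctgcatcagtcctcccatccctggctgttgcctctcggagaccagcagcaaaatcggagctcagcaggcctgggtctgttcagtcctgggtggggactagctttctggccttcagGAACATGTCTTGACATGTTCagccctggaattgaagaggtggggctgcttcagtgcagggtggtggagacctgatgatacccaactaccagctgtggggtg
Of these genes Ccng1 fell, Gtse1 was higher as given above, and Rps27l (-0.22 ± 0.51) and Cdkn1a did not pass. Rps27l, a ribosomal protein paralogue, stood at 6.21, 6.91 and 6.79 in double-deleted cells and 5.36, 7.52 and 7.70 in Ezh2-deleted cells, and Cdkn1a at 0.16, 2.0 and 2.67 in double-deleted cells and 0.45, 2.91 and 3.37 in Ezh2-deleted cells. Of the 7 genes counted with the element 2 were higher and 1 lower, with a median of -0.21, near the median of all features.

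Among p53 and 20 of its regulators, 2 rose (Cdkn2a, Trp73) and 6 fell (Trp53, Rpl11, Hipk2 and, chosen after their values were seen, Mdm4, Kat5 and Cop1), and Trp53, Cdkn2a and Hipk2 were also called in the balanced contrast (5 and 6 after normexp on the list). Hipk2, a kinase that activates p53, stood at -1.11, -0.82 and -0.41 in double-deleted cells, against 0.73, 0.83 and 0.55 in Ezh2-deleted cells, and fell by 1.48 ± 0.24 (adjusted p = 0.00236). The difference between p53-deleted and WT cells was -0.01 and was not called. Rpl11, a ribosomal protein that binds MDM2, fell by 1.49 ± 0.21 (adjusted p = 0.00126), whereas another of its 3 probes read 1.56. In the BCL2 family of apoptosis regulators 5 of 18 fell and none rose, with a median of -0.45 (3 and 3 after normexp, median -0.17). The balanced contrast called 2 members higher, Bmf and Bok, chosen after their values were seen, and 1 lower, and p53-deleted against WT cells had 6 higher and 1 lower. Bcl2l14 fell by 1.47 ± 0.37 (adjusted p = 0.0178), and it was the 1 member lower in the balanced contrast (-1.62 ± 0.26, adjusted p = 0.0133). Bad fell by 1.11 ± 0.23 (adjusted p = 0.00797) and Bnip3l by 0.98 ± 0.24 (adjusted p = 0.0166), both pro-apoptotic, while a second Bnip3l probe read 0.15. The survival genes Bcl2 (-0.54 ± 0.27) and Mcl1 (-0.31 ± 0.24) did not pass. With 1 array left out, the call was lost by Bcl2l14 for 4 arrays (adjusted p up to 0.0881, without double-deleted DN2), Bad without double-deleted DN2 (adjusted p = 0.0528) and Bnip3l for 4 arrays (adjusted p up to 0.0908, without double-deleted DN2).

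Few genes of DNA repair and of the cell cycle passed the test. Of 32 DNA damage checkpoint and repair genes 3 rose and 1 fell (median 0.01; 6 and 3 after normexp). Nbn, of the MRN complex that binds breaks, rose by 1.33 ± 0.29 (adjusted p = 0.00997), and Palb2, the partner of BRCA2, by 1.56 ± 0.36 (adjusted p = 0.0118). Brca1 was called at levels that were detected on 1 of the 6 arrays (-4.41, -3.11 and -3.64 in double-deleted and -5.33, -4.77 and -5.17 in Ezh2-deleted cells). Prkdc, the catalytic subunit of the end-joining kinase DNA-PK that acts on receptor gene rearrangement, fell by 1.01 ± 0.25 (adjusted p = 0.0167), with a balanced change of -0.71 ± 0.18 (adjusted p = 0.0473), and lies on chromosome 16, described below. Of 40 cell cycle genes 4 rose and none fell (median 0.24; 9 and 1 after normexp). Cdc25b, a phosphatase that activates CDK1, rose by 1.12 ± 0.35 (adjusted p = 0.0383) and was the only member called in both contrasts. Cdk1 is described below. Kif23, a kinesin of cytokinesis, rose by 1.38 ± 0.35 (adjusted p = 0.0177), and Aurkb, an aurora kinase, was at least 2.30-fold higher (adjusted p = 0.00068), both lower in p53-deleted than in WT cells. Among D cyclins, CDK4/6 and the RB family 2 of 11 rose, the E2F factors E2f4 and E2f5, and none fell (1 and 1 after normexp). After normexp Palb2, Brca1, Aurkb and E2f5 turned to -0.23, -1.08, -0.38 and -0.30. Calls that ended without a given array were those of Nbn without double-deleted DN2 (adjusted p = 0.053), Palb2 without double-deleted DN2 (adjusted p = 0.0607), Brca1 for 5 arrays (adjusted p up to 0.0996, without double-deleted DN2), Prkdc for 4 arrays (adjusted p up to 0.0815, without double-deleted DN2), Cdc25b for 6 arrays (adjusted p up to 0.163, without double-deleted DN2), Kif23 for 4 arrays (adjusted p up to 0.09, without double-deleted DN2) and E2f5 without double-deleted DN2 (adjusted p = 0.06).

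A set of genes rose with p53 loss in both Ezh2 backgrounds. Foxb1, a forkhead factor of the developing brain, stood at 2.17, 1.61 and 1.55 in double-deleted cells and was not detected in Ezh2-deleted cells (-5.18, -4.62 and -5.06), at least 33-fold higher (adjusted p = 5.10e-06). Its level was 1.67, 1.40 and 1.76 in p53-deleted cells, against -3.54, -5.06 and -4.86 in WT cells, where it was not detected. Lhx2, a LIM homeobox factor and PRC2 target, was at least 14.4-fold higher in double-deleted cells (adjusted p = 0.000395), at 0.56, 1.14 and 0.03, against -4.35, -3.77 and -4.30, and stood at 0.45, 0.14 and 1.23 in p53-deleted cells, against -4.69, -5.16 and -3.01 in WT cells. Sat2, a polyamine acetyltransferase encoded near Trp53, was at least 25.7-fold higher (adjusted p = 3.16e-05), at 1.27, 1.27 and 1.68, against -3.99, -4.56 and -4.99, with levels of 2.15, 2.0 and 2.04 in p53-deleted cells, against -2.71, -5.08 and -4.14 in WT cells, although its other probe read -0.07. For Foxb1, Lhx2 and the Sat2 probe with these levels all arrays with p53 deleted stood above all arrays with p53. Ajuba, a LIM protein of the Hippo pathway, was at least 23.2-fold higher (adjusted p = 0.000352), with 1.47, 1.19 and 1.15 in double-deleted and -3.82, -3.87 and -5.30 in Ezh2-deleted cells. Its p53-deleted levels were -0.06, -1.81 and -0.05, against -1.60, -4.64 and -3.79 in WT cells.

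Plagl1, an imprinted zinc finger gene that restrains growth, rose by 5.92 ± 0.85 (adjusted p = 0.00131), a 60.6-fold difference. It climbed with stage in double-deleted cells (2.39, 4.34 and 5.64) and stood at -2.86, -1.37 and -1.16 in Ezh2-deleted cells, -1.54, 0.86 and 3.02 in p53-deleted cells and -1.15, -2.56 and -2.05 in WT cells. Its 4 probes rose by 0.40 to 5.92. In all, 236 named genes were called higher in both contrasts with the same sign in all 3 stages. Of these, 136 were called higher in p53-deleted than in WT cells as well, against 16.7% of all features. That difference is part of the balanced contrast by which they were found, so the count of 136 supports nothing. Of the 236, 112 were detected on no WT array and 42 on no Ezh2-deleted, p53-deleted or WT array.

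Other genes were detected on double-deleted arrays only. These arrays were the brightest of the 12, and the part of brightness in the detection was not tested. Of 91 named genes detected on all 3 double-deleted arrays and on none of the other 9 non-leukemic arrays, 71 were called higher than in Ezh2-deleted cells, against 13.9% of all features; detection on all 3 double-deleted and no Ezh2-deleted array was part of how they were found, so their count supports nothing. Lin28b, an RNA-binding protein of fetal blood stem cells that blocks let-7 miRNAs, stood at -0.46, 0.00 and -1.17 in double-deleted cells and was not detected in Ezh2-deleted (-5.35, -4.47 and -4.82), p53-deleted or WT cells, at least 6.63-fold higher than in Ezh2-deleted cells (adjusted p = 2.2e-05). Smoc2, a secreted calcium-binding protein, showed the same pattern, with 1.18, 0.06 and -0.32 in double-deleted and -5.38, -4.83 and -4.44 in Ezh2-deleted cells, at least 11.9-fold higher (adjusted p = 3.69e-05). Hoxa11, a posterior homeobox gene, stood at -0.92, -1.52 and -2.88 and was detected on no other non-leukemic array, at least 2.82-fold higher than in Ezh2-deleted cells (adjusted p = 0.000586), and it read -0.09 after normexp.

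A further set stood highest in double-deleted cells but was detected on some p53-deleted and WT arrays too. Fabp4, a fatty acid carrier of fat cells and macrophages, was at least 29.5-fold higher (adjusted p = 0.00188), at 0.61, 1.40 and 2.87, against -3.99, -4.73 and -3.65. The imprinted growth factor gene Igf2 stood at -1.60, 1.64 and 1.97 in double-deleted cells and was not detected in Ezh2-deleted cells, at least 15.4-fold higher (adjusted p = 0.00622), but it missed the balanced test (balanced adjusted p = 0.0946). Igf2os, the antisense transcript of the same locus, was at least 33.7-fold higher (adjusted p = 0.000925) and passed both tests. Igf2os was also detected on all 3 p53-deleted and 2 WT arrays. Of 27 tested myeloid genes 1 rose, Lyz1, and none fell, with a median of 0.23 (4 and 11 after normexp, median -0.98). In the balanced contrast Lyz1 was called lower (-1.94, adjusted p = 0.0104), and the list had 1 higher and 3 lower. Of the myeloid markers Csf1r was detected on all 6 arrays, at 2.10, 1.78 and 1.93 in double-deleted and 3.13, 1.5 and 0.89 in Ezh2-deleted cells, and S100a8 on 3 double-deleted and 1 Ezh2-deleted array. All 4 myeloid markers (Lyz2, Itgam, S100a8 and Csf1r) were measured, and their summed level ranged from 4.63 to 5.05 on double-deleted and from 4.46 to 4.99 on Ezh2-deleted arrays. Itgam was the largest part of that sum on each array, at 4.26, 4.71 and 4.84 in double-deleted and 4.26, 4.43 and 4.3 in Ezh2-deleted cells. S100a8 stood at 0.14, -0.12 and -1.17, against 1.63, -4.93 and -5.31 in Ezh2-deleted cells. Lyz2 stood at -1.91, -2.15 and -1.74, against -0.13, -2.16 and -1.52. The part of myeloid cells in the Fabp4 levels was not tested. Single arrays left out took away the call of Lyz1 for 4 arrays (adjusted p up to 0.0946, without double-deleted DN3).

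PRC2 target genes, a list of 42 developmental regulators of which 25 passed the filter on dim probes, had 11 higher and 1 lower in double-deleted cells (median 1.03), and 7 of the 12 were called in both contrasts. Those 25 passed partly through the levels where they are high, so the count covers the detectable members only, and after normexp it turned to 5 higher and 13 lower with a median of -0.46. Hoxa10, chosen after its values were seen, stood at -1.57, -2.46 and -2.96 in double-deleted cells and was detected on no Ezh2-deleted, p53-deleted or WT array (adjusted p = 0.00085). Nkx2-2, the 1 member that fell (1.59 ± 0.26, adjusted p = 0.00246), was likewise chosen after its values were seen. Hoxa9, a homeobox gene of blood progenitors, did not pass (0.14 ± 0.36).

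The Polycomb genes themselves moved in small numbers. Ezh2 read 3.83, 4.32 and 4.01 in double-deleted cells and 2.78, 3.89 and 3.72 in Ezh2-deleted cells, a change of 0.59 ± 0.40 (adjusted p = 0.286), and both genotypes carry its deletion. After normexp Ezh2 was called higher in double-deleted cells. The Ezh2 probe, too, has no stated position relative to the floxed part, so its level checks no label. Of 11 PRC2 components 1 fell, Jarid2, which recruits the complex, by 0.68 ± 0.22 (adjusted p = 0.0447), and Suz12 (0.62 ± 0.29), Eed (-0.34 ± 0.23) and the paralogue Ezh1 (-0.95 ± 0.34) did not pass. The list had 2 higher and none lower after normexp, and 1 higher and none lower after quantile normalization and with the percentile over detected probes, so its direction turns with scaling. Of 18 PRC1 components 2 rose and 2 fell (5 and 3 after normexp). Cbx8 was at least 3.99-fold higher (adjusted p = 4.64e-05), at -1.01, -1.24 and -1.57, against -5.16, -4.33 and -5.03 in Ezh2-deleted cells, but it was not detected in p53-deleted cells either, while WT cells had 0.32, -0.01 and 0.10. In the balanced contrast Cbx8 was called lower (-0.91, adjusted p = 0.0323). Cbx6 rose by 1.76 ± 0.31 (adjusted p = 0.0038), with another of its 3 probes at -0.19, and Phc1 fell by 0.87 ± 0.24. Of 13 DNA methylation genes none rose and 4 fell, Tet1, Tet3, Mbd3 and Dnmt3l (2 and 3 after normexp). Another of the 3 Tet3 probes read 0.37. Tet1, a dioxygenase that starts demethylation, fell by 0.92 ± 0.21 (adjusted p = 0.0124) and also in the balanced contrast (-0.88 ± 0.15, adjusted p = 0.0157), while Dnmt3l was detected on 1 of the 6 arrays. Leaving out 1 of the 12 arrays ended the call of Jarid2 for 9 arrays (adjusted p up to 0.167, without double-deleted DN3), Phc1 for 6 arrays (adjusted p up to 0.101, without double-deleted DN3), Tet1 without double-deleted DN2 or Ezh2-deleted DN2 (adjusted p = 0.0776 without double-deleted DN2) and Mbd3 for 9 arrays (adjusted p up to 0.149, without Ezh2-deleted DN2).

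Among the largest falls that passed both contrasts, Epha2, an ephrin receptor kinase, stood at -5.78, -3.02 and -3.81 in double-deleted cells, against -2.16, 1.52 and 0.63 in Ezh2-deleted cells, and fell by 4.20 ± 0.63 (adjusted p = 0.0016). It was not detected in p53-deleted cells and stood at -4.36, 0.70 and 0.35 in WT cells. In Ezh2-deleted and WT cells it was lowest at DN1. Slc2a4, the insulin-responsive glucose transporter, fell by 3.21 ± 0.44 (adjusted p = 0.00109), with a balanced change of -2.28 ± 0.31 (adjusted p = 0.00713). Nkg7, a granule protein of cytotoxic cells, stood at 4.98, 3.39 and 2.88, against 8.77, 7.0 and 5.26, and fell by 3.26 ± 0.57 (adjusted p = 0.00357). Rec8, a meiotic cohesin, fell by 3.16 ± 0.27 (adjusted p = 7.53e-05), but it was higher in p53-deleted than in WT cells (difference 1.60) and its balanced change was -0.78 ± 0.19 (adjusted p = 0.0438). Cmpk2, a mitochondrial nucleotide kinase induced by interferon, fell by 3.57 ± 0.35 (adjusted p = 0.000159) and was higher in p53-deleted than in WT cells (difference 2.05), and it missed the balanced test. The olfactory receptor gene Olfr332 and the homeobox gene Hoxb6 were at least 4.18-fold and 3.05-fold lower (adjusted p = 3.01e-05 and 7.87e-05), not detected in double-deleted cells. Both were higher in p53-deleted than in WT cells (differences 2.31 and 1.62, adjusted p = 0.000521 and 0.00393). Siglec1, a macrophage receptor, and Pappa2, a protease, were at least 2.2-fold and 2.31-fold lower (adjusted p = 0.000282 and 0.000326), each detected on 2 Ezh2-deleted arrays and no other non-leukemic array. Of the remaining large falls none passed the balanced test: Tnfsf8, a TNF family ligand, fell by 3.79 ± 0.61, Olfr1109 by 3.52 ± 0.37, Cyp2c37 by 3.42 ± 0.30, Olfr48 by 3.41 ± 0.33, Arhgap22 by 3.18 ± 1.02, Serpina1a by 3.16 ± 0.42 and Apobr by 3.15 ± 0.62. The other Serpina1a probe read 0.15. With 1 array left out, the call was lost by Arhgap22 for 9 arrays (adjusted p up to 0.176, without double-deleted DN2). Of the 15 largest falls 7 were lower in the balanced contrast, 3 were lower and 8 higher in p53-deleted than in WT cells.

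The largest rises were mostly of another kind. Of the 15 genes with the largest rise, 12 were detected on no Ezh2-deleted array, 8 of the 15 on no p53-deleted array and 11 on all WT arrays, and 10 of the 15 were lower in p53-deleted than in WT cells. Cdk1, the mitotic cyclin-dependent kinase, read 2.56, 3.48 and 2.84 in double-deleted cells, against -5.61, -3.33 and -3.87 in Ezh2-deleted cells, at least 75-fold higher (adjusted p = 5.41e-05). It read -4.06, -4.98 and -3.81 in p53-deleted cells, against 0.43, 2.89 and 2.78 in WT cells, so the 6 arrays of slide 2 stood below the other 6, and another of its 3 probes changed by -0.52 between double-deleted and Ezh2-deleted cells. E2f4, a repressive E2F factor, Npm3, a histone chaperone, Ndufaf8, a respiratory complex assembly factor, and Slc25a22, a mitochondrial glutamate carrier, showed the same split, with balanced changes of -0.06, 0.47, 0.23 and -0.28, none called. BC048507, Ppp5c, Taf13 and Zfp985 likewise did not pass the balanced test. Over the array, 681 features were detected on all double-deleted and WT arrays and on no Ezh2-deleted or p53-deleted array. Of these, 555 were called higher in double-deleted than in Ezh2-deleted cells, against 13.9% of all features. Detection in these genotypes was part of how they were found, so their count supports nothing. The reverse pattern held for 16, and the arrays of slide 2 were the dimmer ones. The part of the slide in these calls was not tested apart from the balanced contrast.

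Several gene groups fell between double-deleted and Ezh2-deleted cells and rose between p53-deleted and WT cells. Of 30 interferon response genes 21 fell and 1 rose (median -1.14; 1 and 22 after normexp), 23 rose in p53-deleted cells against WT cells, and in the balanced contrast 1 was higher and none lower (median -0.01). Isg15, a ubiquitin-like protein, stood at 4.16, 3.64 and 4.36, against 6.08, 6.49 and 6.46 in Ezh2-deleted cells, and fell by 2.29 ± 0.26 (adjusted p = 0.00036). Rsad2, which encodes viperin, fell by 2.05 ± 0.27 (adjusted p = 0.000774) and Ifit3 by 2.36 ± 0.51 (adjusted p = 0.00918). Xaf1, a pro-apoptotic interferon target, was the 1 that rose, by 4.04 ± 0.27 (adjusted p = 1.54e-05), at 3.92, 2.97 and 3.44, against -0.76, -0.42 and -0.60, with a balanced change of 3.07 ± 0.19 (adjusted p = 0.000186), while its other probe read -1.39. Of 31 ribosomal protein genes 22 fell and 2 rose (median -1.25; 3 and 21 after normexp), 8 rose and 3 fell in p53-deleted against WT cells, and the balanced contrast called none higher and 1 lower, Rps29, chosen after its values were seen. Rpsa and Rps18 fell by 1.63 ± 0.21 (adjusted p = 0.000762) and 1.61 ± 0.23 (adjusted p = 0.00115). After quantile normalization the ribosomal list had 4 higher and 5 lower with a median of -0.01.

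Genes of the T cell receptor complex followed that pattern. Of 34 CD3, pre-TCR and TCR signalling genes 12 fell and 2 rose (median -0.74), against 12 higher and none lower in p53-deleted against WT cells (2 and 9 after normexp between double-deleted and Ezh2-deleted cells). Cd3d stood at 5.77, 4.29 and 6.21 in double-deleted cells, against 8.03, 7.83 and 9.28 in Ezh2-deleted cells, and fell by 2.96 ± 0.48 (adjusted p = 0.00243), with a balanced change of -0.56. Cd3e fell by 1.73 ± 0.29 (adjusted p = 0.00299), the adaptor Lcp2 by 1.68 ± 0.25 (adjusted p = 0.00159) and the surface receptor Cd7 by 3.03 ± 0.76 (adjusted p = 0.0167). The 2 that rose were the CD8 chains Cd8a (1.26 ± 0.36) and Cd8b1 (1.13 ± 0.37), and Cd8b1 was the only list member called in both contrasts; Cd8a read -0.36 after normexp. Ptcra, the pre-TCR alpha chain, climbed with stage in both genotypes and did not pass (-1.19 ± 0.85). Calls that ended without a given array were those of Cd7 for 4 arrays (adjusted p up to 0.0802, without double-deleted DN2), Cd8a for 6 arrays (adjusted p up to 0.106, without Ezh2-deleted DN2) and Cd8b1 for 9 arrays (adjusted p up to 0.157, without Ezh2-deleted DN2).

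Among T-lineage transcription factors 1 of 26 rose and 7 fell (1 and 6 after normexp). Id1, an inhibitor of E proteins, stood at 3.07, 4.13 and 3.87, against -0.54, 0.04 and 1.34 in Ezh2-deleted cells, rose by 3.41 ± 0.48 (adjusted p = 0.00115) and passed the balanced test (1.63 ± 0.34, adjusted p = 0.0254), with overlapping levels in p53-deleted (0.66, 1.35 and 2.35) and WT cells (0.84, 2.76 and 1.19). Ikzf1, Runx1, Tox and Sox4 fell by 1.36 ± 0.21, 1.35 ± 0.30, 1.32 ± 0.32 and 0.88 ± 0.25, and none of these 4 passed the balanced test. Tcf7 (-0.21 ± 0.28) and Gata3 (0.05 ± 0.34), which drive commitment, did not pass. Of 15 Notch receptors and effectors 3 rose and 2 fell. Hey1, a Notch-induced repressor, stood at 3.55, 4.31 and 4.59, against -0.03, -0.84 and 0.46, and rose by 4.29 ± 0.44 (adjusted p = 0.0002), but it was lower in p53-deleted than in WT cells and missed the balanced test (0.88). Hes1, another such repressor, rose by 4.47 ± 0.45 (adjusted p = 0.000195) but was lower in p53-deleted than in WT cells, and in the balanced contrast it was called lower (-1.25). Myc fell by 1.07 ± 0.28 (adjusted p = 0.0189), and Notch1 (-1.0 ± 0.37) and Notch3 (-0.01 ± 0.48) did not pass. Single arrays left out took away the call of Runx1 without double-deleted DN2 (adjusted p = 0.0624), Tox for 4 arrays (adjusted p up to 0.0679, without double-deleted DN2), Sox4 for 6 arrays (adjusted p up to 0.108, without double-deleted DN3) and Myc for 5 arrays (adjusted p up to 0.0806, without Ezh2-deleted DN2).

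Among 25 genes of the IL-7 receptor and JAK-STAT pathway 3 rose and 4 fell, near the shares of all features (6 and 5 after normexp). Socs2, a suppressor of cytokine signalling, stood at 1.82, 3.73 and 2.99, against -0.08, 1.70 and -0.09 in Ezh2-deleted cells, rose by 2.33 ± 0.48 (adjusted p = 0.00752) and passed the balanced test (1.83 ± 0.34, adjusted p = 0.0193). Cish, of the same family, rose by 2.28 ± 0.52 (adjusted p = 0.0113), and Il15ra by 1.60 ± 0.18 (adjusted p = 0.000376), with its other probe at -0.38. Jak3, the kinase of the common gamma chain, fell by 1.57 ± 0.34 (adjusted p = 0.00932), and Socs1, another suppressor, chosen after its values were seen, by 0.93 ± 0.29. Of 29 immediate-early genes 4 rose and none fell (5 and 1 after normexp). Zfp36, an RNA decay factor, rose by 4.68 ± 0.64 (adjusted p = 0.00101), Atf3 by 3.65 ± 1.16 (adjusted p = 0.0418) and Klf4 by 1.61 ± 0.48 (adjusted p = 0.0325), and Fosl1 was detected on 1 of the 6 arrays. None of these 4 passed the balanced test. Of 17 heat-shock proteins and chaperones 1 rose, Hspa4l (1.24 ± 0.24), and 1 fell, Hsp90ab1 (-0.88 ± 0.29), but the list had 9 higher and none lower after normexp (median 0.56) and 3 higher and none lower after quantile normalization. Of 30 MYC and ribosome biogenesis genes none rose and 2 fell, Myc and Bop1 (-1.06 ± 0.28), with a median of -0.11, but 7 were higher and 1 lower after normexp, with a median of 0.25. Of 26 stem and early progenitor genes none rose and 1 fell, Sox4 (1 and 5 after normexp), and of 9 fetal LIN28-IGF2BP genes 3 rose, Lin28b, Igf2 and Lin28a (1.33 ± 0.30), and 1 fell, Hmga1 (-1.15 ± 0.35). Of 17 thymic homing and chemokine receptors Cxcr4 rose (1.38 ± 0.19) and Selplg (-1.99 ± 0.27) and Cx3cr1 (-3.19 ± 1.07) fell (1 and 5 after normexp). After normexp Fosl1 turned to -1.08. Leaving out 1 of the 12 arrays ended the call of Cish without Ezh2-deleted DN3 (adjusted p = 0.0515), Jak3 without double-deleted DN2 (adjusted p = 0.0518), Atf3 for 8 arrays (adjusted p up to 0.161, without Ezh2-deleted DN2), Klf4 for 5 arrays (adjusted p up to 0.121, without Ezh2-deleted DN2), Hsp90ab1 for 8 arrays (adjusted p up to 0.173, without double-deleted DN2), Bop1 for 6 arrays (adjusted p up to 0.0771, without Ezh2-deleted DN2), Hmga1 for 6 arrays (adjusted p up to 0.139, without Ezh2-deleted DN2), Lin28a without double-deleted DN2 (adjusted p = 0.0622) and Cx3cr1 for 8 arrays (adjusted p up to 0.191, without double-deleted DN2).

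Markers of other cells that the gates could hold differed in the same samples. Among NK and innate lymphoid genes, 9 of 38 fell with no rise (median -1.75; 0 and 28 after normexp), and 3 fell in the balanced contrast. The list had 4 lower after quantile normalization and 3 lower with the percentile over detected probes, and none higher in either. Of all features 14.9% and 11.6% were lower under these settings. NK genes were high at DN1: Klrb1c read 1.04, -5.81 and -5.83 in double-deleted cells, against 5.16, -0.88 and -5.10 in Ezh2-deleted cells. The summed level of 4 NK markers ranged from -3.82 to 2.96 on double-deleted and from -2.72 to 6.20 on Ezh2-deleted arrays. The receptor gene Ncr1 fell by 3.24 ± 0.94 (adjusted p = 0.0294), the chemokine Xcl1 by 3.13 ± 0.87 (adjusted p = 0.025) and the Fc receptor gamma chain Fcer1g by 2.85 ± 0.84 (adjusted p = 0.0313). The part of NK cells in the falls of Nkg7 and Cd7 was not tested. Of 20 B-lineage genes 4 fell and none rose, Ly6d, Cd79b, Cd72 and Vpreb1, and Cd79b (-2.39 ± 0.32) and Vpreb1 (-1.31 ± 0.43) were called in both contrasts (0 and 14 after normexp on the list). The B cell markers Cd79a and Ms4a1 were each detected on 1 array of either genotype and highest at DN1, with a summed level of -3.47 to 0.17 on double-deleted and -3.17 to 3.07 on Ezh2-deleted arrays. Of 20 antigen presentation and dendritic cell genes 2 rose and 5 fell, and the falls included Itgax (-2.78 ± 0.71), H2-DMb1 (-2.11 ± 0.66) and H2-DMa (-2.02 ± 0.43), and none passed the balanced test (1 and 10 after normexp on the list). The summed level of the 3 dendritic cell markers (Itgax, Siglech and H2-Aa) ranged from 7.92 to 8.04 on double-deleted and from 6.63 to 7.08 on Ezh2-deleted arrays. Siglech carries that sum, at 7.93, 7.92 and 8.04 in double-deleted and 6.68, 6.6 and 7.08 in Ezh2-deleted cells. Itgax stood at -1.68, -2.53 and -5.94, against 3.68, -0.81 and -4.68 in Ezh2-deleted cells, and H2-Aa at -0.11, -2.84 and -3.13, against 3.46, 0.95 and -5.2, so Itgax was lower at all 3 stages and H2-Aa at DN1 and DN2. With 1 array left out, the call was lost by Ncr1 for 4 arrays (adjusted p up to 0.126, without double-deleted DN2), Xcl1 for 4 arrays (adjusted p up to 0.111, without double-deleted DN2), Fcer1g for 5 arrays (adjusted p up to 0.121, without double-deleted DN1), Ly6d for 5 arrays (adjusted p up to 0.134, without double-deleted DN2), Cd72 for 4 arrays (adjusted p up to 0.126, without double-deleted DN2), Vpreb1 for 7 arrays (adjusted p up to 0.171, without double-deleted DN2), Itgax for 3 arrays (adjusted p up to 0.0639, without double-deleted DN1), H2-DMb1 for 7 arrays (adjusted p up to 0.168, without double-deleted DN2) and Cd7 for 4 arrays (adjusted p up to 0.0802, without double-deleted DN2).

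Lists of the remaining cell types were mixed. Of 16 erythroid, megakaryocyte and mast genes 2 rose, Tfrc (1.02 ± 0.33) and Car1 (not detected in Ezh2-deleted or p53-deleted cells), and 1 fell, Pf4, detected on 1 of the 6 arrays (1 and 6 after normexp). Another of the 3 Tfrc probes read -0.25. Of 12 thymic stroma and endothelium genes 2 rose and 1 fell (5 and 4 after normexp). Col1a2, a collagen chain, stood at 1.45, 0.75 and -1.08, against -3.60, -2.55 and -3.03 in Ezh2-deleted cells, rose by 3.43 ± 0.89 (adjusted p = 0.0195) and passed the balanced test (4.33 ± 0.63, adjusted p = 0.00875), and it was also higher in p53-deleted (4.83, 0.77 and 0.00) than in WT cells (-2.75, -3.40 and -3.91). Sparc, a matrix protein, rose by 3.52 ± 0.77 (adjusted p = 0.0095) and missed the balanced test, Epcam, an epithelial adhesion protein, fell by 1.98 ± 0.40 (adjusted p = 0.00657) and passed it, and the endothelial marker Cdh5 was detected on none of the 12 arrays. The summed level of the 3 stromal markers Epcam, Col1a1 and Cdh5 ranged from -2.33 to -0.82 on double-deleted and from -1.5 to 1.03 on Ezh2-deleted arrays. Of 19 double-positive thymocyte genes 2 rose, Cd8a and Cd8b1, and 3 fell, and of these Trat1, an adaptor (-1.03 ± 0.32), and Cd8b1 were called in both contrasts. None of 12 gamma delta T and type 17 genes was called by limma in the direct comparison, with 1 at an unadjusted p under 0.05, and the median was -1.06 (0 and 2 after normexp). After normexp Car1 turned to -0.54. Calls that ended without a given array were those of Tfrc for 8 arrays (adjusted p up to 0.168, without double-deleted DN2), Car1 without double-deleted DN2 or Ezh2-deleted DN1 (adjusted p = 0.0673 without double-deleted DN2), Pf4 for 3 arrays (adjusted p up to 0.0935, without double-deleted DN2), Col1a2 for 3 arrays (adjusted p up to 0.084, without double-deleted DN2) and Trat1 for 6 arrays (adjusted p up to 0.163, without double-deleted DN2).

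**Figure D4:**
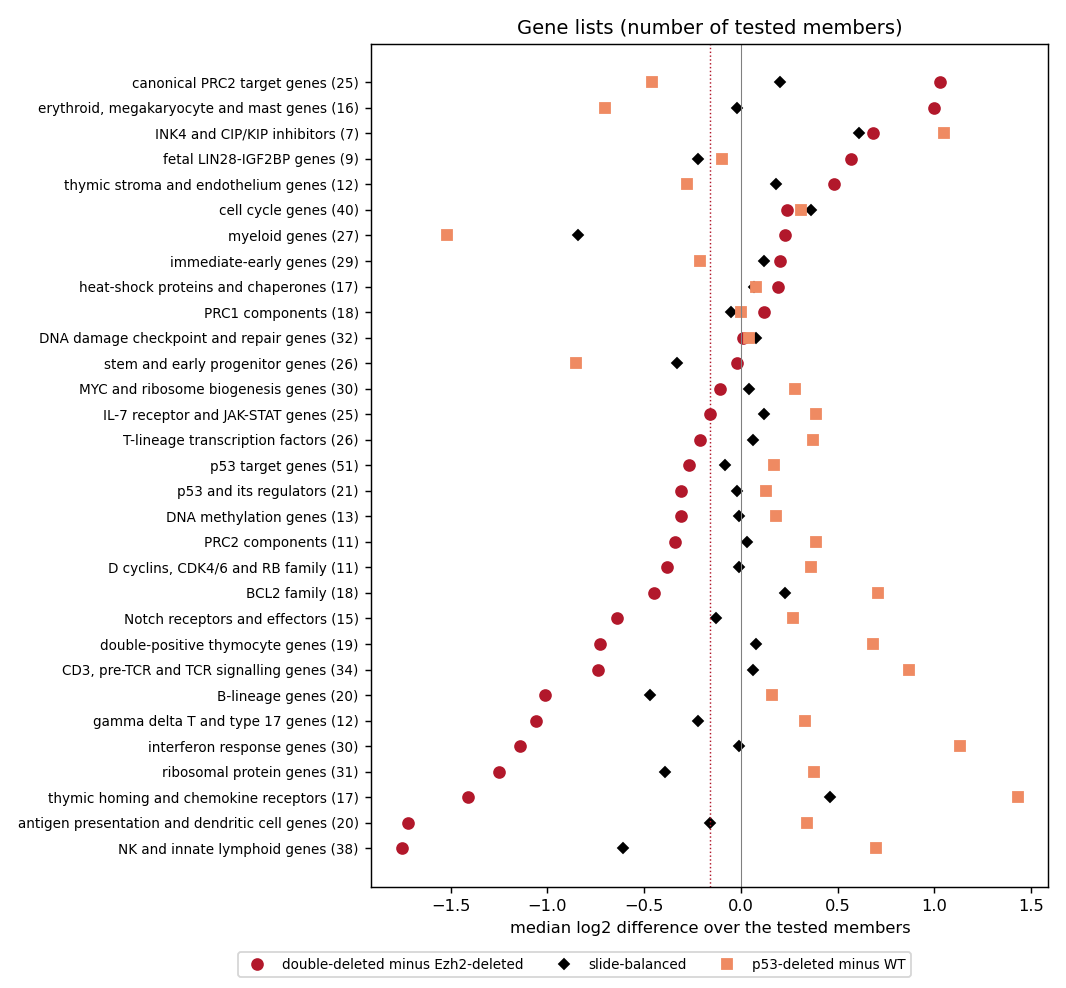
Median log2 difference over the tested members of each gene list (number in brackets) for double-deleted minus Ezh2-deleted cells (circles), the slide-balanced contrast (diamonds) and p53-deleted minus WT cells (squares); the dotted line is the median of all features in the first of these, -0.16. Circles and squares lie on opposite sides of 0 for 25 of 31 lists, such as interferon response genes at -1.14 and 1.13, while for INK4 and CIP/KIP inhibitors all 3 lie above 0.

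Falls in the balanced contrast were concentrated on chromosome 16, a pattern found after the values were seen and given without a test. Of the 268 named genes called lower in both contrasts with the same sign in all 3 stages, 49 (18.3%) lie on chromosome 16, which holds 3.17% of the named autosomal genes, against 4 of the 236 called higher (1.69%). Among named genes detected on all 12 arrays, the 310 of chromosome 16 had a median balanced change of -0.56, against 0.01 for the 9506 of other autosomes, and 292 of the 310 (94.2%) were below 0. Their median change between double-deleted and Ezh2-deleted cells was -0.81, against -0.31 elsewhere, and between p53-deleted and WT cells it was -0.25, against 0.36. Relative to all other autosomes, chromosome 16 genes stood at -0.26, -0.34 and -0.08 in double-deleted and -0.39, -0.17 and -0.54 in p53-deleted cells, against 0.25, 0.33 and 0.33 in Ezh2-deleted and 0.22, 0.30 and 0.28 in WT cells. Every array with p53 deleted thus lay below every array with p53, on both slides that hold several arrays. No other chromosome left the range of -0.35 to 0.14 on any of the 12 arrays, the lowest being chromosome 12 in p53-deleted DN1. When the chromosome was read in 16 successive blocks of up to 20 genes, all 16 block medians of the balanced change were negative, between -0.70 and -0.47. Among the genes named above, Prkdc, Runx1, Trat1, Vpreb1, Socs1, Hes1, Tfrc and Cd80 lie on chromosome 16.

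**Figure D5:**
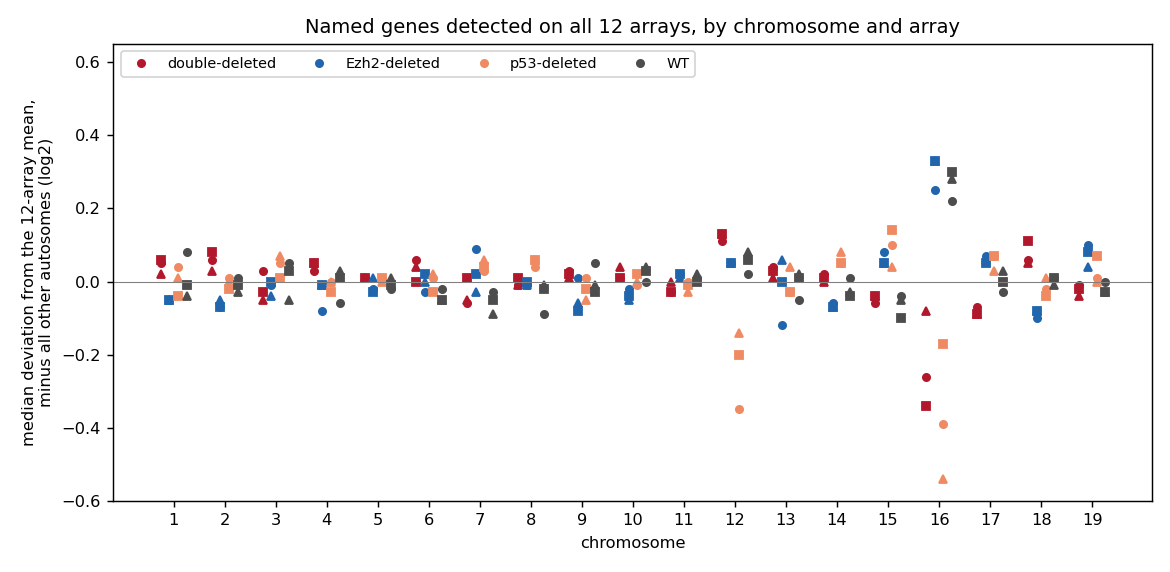
Each point is 1 array: the median over the named genes of a chromosome of the deviation from the mean of all 12 arrays, minus the same median over all other autosomes (log2), for genes detected on all 12 arrays; circles are DN1, squares DN2 and triangles DN3. On chromosome 16 the 6 arrays with p53 deleted lie between -0.54 and -0.08 and the 6 arrays with p53 between 0.22 and 0.33.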

How the data were processed

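Agilent 1-colour arrays were read from 12 non-leukemic samples (4 genotypes at 3 stages) and 2 leukemias. Per the labels' protocols, each labelling reaction started from 20 ng of RNA with Cy3 as the dye. The deposited processed intensity of a spot was background-subtracted, spatially detrended and not scaled between arrays, per the file headers, which name Feature Extraction 10.7.1.1. The authors' deposited value table matched that intensity divided by 1 constant per array.

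Levels here are log2 of the processed intensity after division by the array's 75th percentile. Control and outlier spots were left out and spots of a probe averaged (59305 spots, 55681 probes). RefSeq accessions gave 27656 probes 1 gene symbol; the others were tested unnamed. Probes had to be well above background on 2 or more of all 14 arrays, 913 probes of X or Y were dropped, and a gene was read by its brightest probe (26341 features, 13740 named). The 12 arrays were fitted with genotype plus stage in limma 3.58.1 in R 4.3.3 (6 residual degrees of freedom), with Benjamini-Hochberg adjustment over all features and a threshold of 0.05; every adjusted p is from this fit, or from the same fit without an array where one is named as left out. The script was tested on simulated data. "At least N-fold" is given where no array of the lower genotype was well above background: the mean of the higher genotype against the mean, per array, of the higher of the lowest detected signal and the probe's own. The stage, shared by the labels, pairs the arrays and is a term of the fit. The number of arrays limits the precision.

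Named are Trp53, Cdkn2a and Ezh2, the 15 largest rises and falls called with 1 sign in all stages and detected on all 3 arrays of the higher genotype, the 8 largest each way called in both contrasts, every called p53 target, and the called members of each other list (the 4 largest where over 4); genes with clone-like names were passed over, and a few genes that the rule names are not reported here. The members and gene lists were chosen with earlier results of these data known. Alternatives covered the samples fitted, the stage term, slide as a random block, background correction, scaling, the filter, the probe of a gene and each array left out. The treatment text speaks of bone marrow cells, while the sample labels and series design speak of the thymus, and the thymus was followed. Slides and scan sessions were read from the headers.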

Additional observations from a re-analysis of the deposited data

Results flagged for a closer look

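The change with p53 loss differed between the Ezh2-deleted and the Ezh2-intact background for 12162 features (46.2%) by limma's interaction test. In that test a difference between slides 1 and 2 adds up. The change also differed for 100 of the 135 named genes. Of the 135, 134 were called in the direct comparison, which is part of that test, so the count of 100 supports nothing. Among genes called in both contrasts, the difference between both changes was -7.31 for Cdkn2a, whose rise was smaller when Ezh2 was deleted, 4.60 for Igf2os, 5.36 for Fabp4, 2.90 for Ajuba and 5.19 for Smoc2, whose changes were larger with Ezh2 deleted. It was -6.38 for Olfr332, -5.19 for Hoxb6, -1.85 for Slc2a4, -3.39 for Siglec1 and -3.46 for Pappa2 (log2 throughout). Apart from Cdkn2a, which was detected on 1 WT array, each of these genes was detected on no array of at least 1 genotype: Igf2os, Fabp4 and Ajuba in Ezh2-deleted cells, Slc2a4 in p53-deleted cells, Olfr332 and Hoxb6 in double-deleted and WT cells, and Smoc2, Siglec1 and Pappa2 in 3 of the 4 genotypes. These differences therefore rest in part on signal not above background, and their sizes are not measured. The part of the slide in these differences was not tested. Outside the autosomal comparison, Xist was detected on the 3 Ezh2-deleted arrays, with a mean level of 2.17, and on no other array of the 12.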

How the results depend on the processing

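The count of 8157 features between double-deleted and Ezh2-deleted cells was 15892 after normexp, 19663 with no filter, 4189 over named genes only and 4017 to 8728 with 1 array left out, lowest without double-deleted DN2. The balanced count of 2039 was 1258 with no stage term (no replicate block), 6973 after normexp, 1147 with the percentile over detected probes, 1130 over named genes only, 1141 at 2-fold or more and 339 to 1750 with 1 array left out. The 12162 features of the difference between both p53 effects became 6333 over named genes only and 9854 to 11884 with 1 array left out. Without the stage term, the block that pairs the arrays, the direct comparison called 6691 features and the difference 10497. With slide as a random block the counts were 10256 direct, 2068 balanced and 16888 for the difference. The other alternatives kept these counts within 1.5 times; the fit of 6 arrays alone gives no balanced contrast and no difference.

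Of the 134 called named genes, 70 kept sign and call under all settings of processing and design and 77 with any array left out, between 79 and 131 per array. In the balanced contrast 42 did. Signs turned after normexp for Rrm2b (-0.91), Trp73 (-0.26), Aurkb (-0.38), E2f5 (-0.30), Palb2 (-0.23), Brca1 (-1.08), Hoxa11 (-0.09), Cd8a (-0.36), Car1 (-0.54) and Fosl1 (-1.08). In the balanced contrast they turned for Slc25a22 (-0.28), Ppp5c (-0.47), E2f4 (-0.06), Zfp985 (-0.06), Rrm2b (-0.16), Trp73 (-0.30), Aurkb (-0.24), E2f5 (-0.07), Bnip3l (0.19), Jarid2 (0.21), Cbx8 (-0.91), Tox (0.11), Hes1 (-1.25), Il15ra (-0.05), Lyz1 (-1.94), Car1 (-0.44), Tfrc (-0.07), Ifit3 (0.40), Zfp36 (-0.30), Klf4 (-0.33) and Lin28a (-0.22). Among these, Cbx8, Hes1 and Lyz1 were called lower in the balanced contrast. The cause of these turns was not tested. Signal over background limits dim probes: 1416 of the features called higher were detected on no Ezh2-deleted array and 558 of those called lower on no double-deleted array.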

Other observations

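In both leukemias of double-deleted mice, which were sorted by the DN2 gate, several of the genes described above were also detected, and these arrays entered no test here. Cdkn2a stood at 6.72 and 7.25, Cdkn2b at 3.20 and 3.46, Foxb1 at 2.18 and 1.8, Igf2 at 2.02 and 2.63, Igf2os at 3.10 and 3.39 and Lin28b at -1.61 and -1.15. Fabp4 was detected in neither leukemia and Hoxa11 in 1. Of the 91 named genes detected on all double-deleted and no other non-leukemic arrays, 27 were detected in both leukemias. Of all probes, 50.3% and 43.1% were detected on the leukemia arrays. Chromosome 16 genes stood at -0.64 and -0.63 relative to other autosomes, chromosome 15 genes at 0.45 and 0.26, chromosome 19 genes at -0.40 and -0.17, chromosome 10 genes at -0.03 and 0.28 and chromosome 11 genes at 0.21 and -0.03.

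The neighbours of Trp53 on chromosome 11 were read after the values were seen. Tmem88, the fifth gene before it in the reference order, fell by 1.96 ± 0.47 (adjusted p = 0.014) between double-deleted and Ezh2-deleted cells, with a balanced change of -2.01. Sat2, the third gene after it, was higher as given above. Kdm6b, Efnb3, Wrap53, Atp1b2 and Fxr2, which lie within the same stretch, were not called in either contrast, with direct changes between -0.77 (Wrap53) and 1.06 (Efnb3).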
